A study of Mus musculus with 6 samples.

Results

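The 7 genes followed here mark the CD4 and regulatory T cell lineages, or oppose them, and were measured in sorted mouse CD8 T cells: Cd4, Zbtb7b, Foxp3, Ikzf2, Cd40lg, Gata3 and Runx3. They were taken by symbol, and all 7 were found among the 17744 genes of the authors' table. CD45+ CD3+ CD8a+ cells were sorted from spleen, with a stated positive rate above 90% before sequencing. The 3 control libraries carry the labels wt and control, and the 3 ultrasound libraries are labelled as irradiated with focused ultrasound, sound waves concentrated on a tissue, with the same words in place of a genotype. All 6 libraries share the tissue and the sort, and strain, age, sex, ultrasound dose and interval after treatment are not given in the sources used here. Nothing in the labels says that the samples came from separate animals, so p-values measure the spread between these samples, which may be technical.

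CD4 and CD8 T cells part from a common thymic precursor. Zbtb7b, also called ThPOK, is the factor that commits cells to the CD4 helper lineage, while Runx3 commits them to the CD8 lineage by silencing Cd4 and by opposing Zbtb7b. Gata3 acts upstream of Zbtb7b and later drives type 2 helper cells. Foxp3 is the defining factor of regulatory T cells, most of which carry Cd4, and Ikzf2, or Helios, is a zinc finger factor of the Ikaros family that is abundant in them. Mature CD8 T cells carry little Cd4, so in a pure sort the Cd4, Zbtb7b and Foxp3 transcripts are low beside Cd8a.

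The sequences of the opposed pair are shown because RUNX proteins are known to act on both genes. RefSeq start sites of build GRCm38.p6 matched 4 of the 7 members, Zbtb7b, Foxp3, Gata3 and Runx3, with 7 start sites among them. The 250 bases before each start site were searched on both strands for the RUNX core motif ACCACA, which appears as TGTGGT when it lies on the other strand; no other motif was searched. It was present before 2 of the 7 start sites, against 14.0% of 32851 start sites of all genes. The upstream start site of Runx3 had 2 matches, beginning 134 and 126 bases before the start, and 1.27% of all start sites had 2 or more. Of the 2 start sites of Zbtb7b, the downstream one had 1 match, 89 bases before the start. Capitals mark the motif in the 2 windows, Runx3 at chr4:135120395-135120644 on the plus strand and Zbtb7b at chr3:89387672-89387921 on the minus strand.
Runx3: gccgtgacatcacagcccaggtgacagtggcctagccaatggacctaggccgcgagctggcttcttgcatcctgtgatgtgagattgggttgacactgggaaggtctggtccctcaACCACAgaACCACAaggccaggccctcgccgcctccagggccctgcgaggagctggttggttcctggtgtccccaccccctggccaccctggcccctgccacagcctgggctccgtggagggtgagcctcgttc
Zbtb7b: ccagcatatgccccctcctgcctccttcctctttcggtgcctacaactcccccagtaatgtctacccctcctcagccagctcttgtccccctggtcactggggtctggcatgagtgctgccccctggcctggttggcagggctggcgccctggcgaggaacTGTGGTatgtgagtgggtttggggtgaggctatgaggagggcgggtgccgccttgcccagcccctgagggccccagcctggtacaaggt
The other 5 windows held no match, which says only that these letters are not in them.

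Levels are given in FPKM, fragments scaled by gene length and by library size, so genes can be compared with each other. Whole reads recovered from the deposited values numbered 35024080 to 35297644 per control library and 35204096 to 38113103 per ultrasound library. The groups were compared with limma on log2(FPKM + 1), a scale on which the change of low genes is understated. The 10655 genes with at least 1 FPKM in 3 libraries were tested, and an adjusted p under 0.05 was called. Of them 864, or 8.11%, were called, 698 higher and 166 lower in ultrasound libraries, a share of 80.8% higher that became 67.0% with median-of-ratios size factors and 61.6% with voom on recovered reads. Ultrasound 1 stood apart from ultrasound 2 and ultrasound 3: the mitochondrial share of reads was 2.19% there, inside the control range of 2.05% to 2.70%, but 0.954% and 0.937% in ultrasound 2 and 3. The count of 864 was 5727 without ultrasound 1, 567 without control 1 and 0 without control 2, control 3, ultrasound 2 or ultrasound 3, where limma gave 1962, 2154, 2058 and 1998 genes with an unadjusted p under 0.05.

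All 7 members passed the filter, and 0 of the 7 were called, beside the background of 8.11% (6.55% higher and 1.56% lower). By limma 1 member, Zbtb7b, had an unadjusted p under 0.05, where 31.2% of all tested genes had one. Voom called 0 members as well, beside 5.38% of all tested genes. The groups did not overlap for 1 member, again Zbtb7b, against 34.8% of all tested genes. The authors' deposited table has 1 member with q under 0.05, Zbtb7b, beside 12.3% of its genes. Without ultrasound 1, limma called Zbtb7b and Ikzf2, in a setting that called 53.7% of all tested genes. In libraries of many cells, fewer cells of a type and less RNA per cell cannot be told apart.

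**Figure D1:**
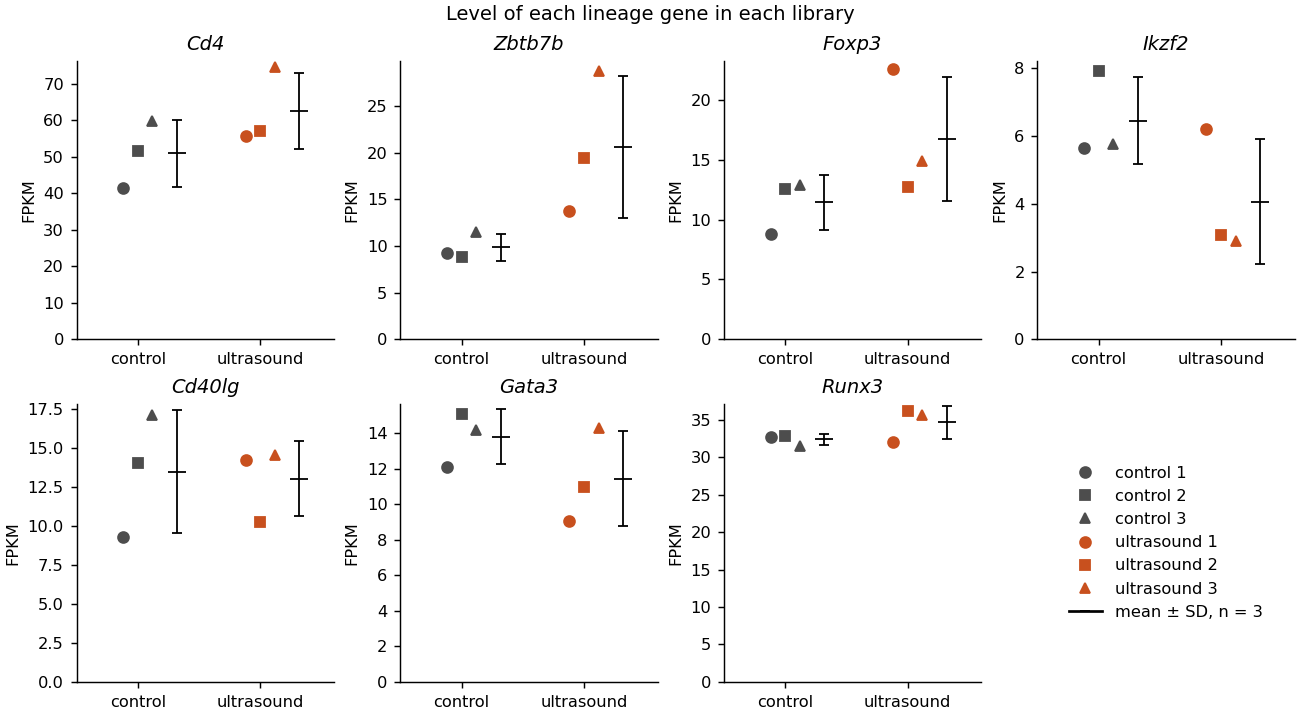
FPKM of the 7 lineage genes (y axis, each from 0) in the 3 control libraries (grey) and the 3 ultrasound libraries (orange), with replicate numbers shown by marker shape and mean ± SD in black (n = 3 each). Zbtb7b is the one gene whose groups do not overlap, with 8.81 to 11.5 FPKM in controls and 13.8 to 28.8 in ultrasound libraries, and Ikzf2 is near 3 FPKM in ultrasound 2 and 3 alone.

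Zbtb7b (NCBI Gene 22724, chr3:89377644-89393673) was measured at 9.28, 8.81 and 11.5 FPKM in controls 1, 2 and 3, and at 13.8, 19.4 and 28.8 FPKM in ultrasound 1, 2 and 3. Every ultrasound library lay above every control, as they did for 25.9% of all tested genes, and the ultrasound libraries differed among themselves by more than the whole control range. The mean went from 9.86 ± 1.42 to 20.7 ± 7.61 FPKM (SD, n = 3 each), a log2 difference of 0.94 with standard error 0.25. The limma adjusted p was 0.0656, short of the threshold, and over the 14 own settings tried it ran from 0.00406 without ultrasound 1 to 0.337 for ultrasound 1 alone against the controls. In that last setting, here and below, the single library is assumed to vary as the controls and ultrasound 2 and 3 do within their groups. The authors' deposited table gives Zbtb7b a log2 fold change of 0.94 and q of 0.0146. The difference was larger in size than that of all but 5.71% of tested genes. Recovered reads were 1546 to 2028 per control and 2425 to 5500 per ultrasound library.

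Other values were also higher in the ultrasound libraries, though those given here did not follow the order of Zbtb7b over the controls. The overlapping long noncoding gene Gm15417 was at 0.145 to 0.237 FPKM in controls and 0.254, 0.442 and 0.820 in ultrasound 1, 2 and 3. The strand setting of the count is not given in the sources used here, so reads shared by overlapping genes cannot be assigned. The summed level of 13 monocyte and macrophage markers was 1211, 815 and 831 FPKM in controls and 2309, 2555 and 3933 FPKM in ultrasound 1, 2 and 3. Of those 13 markers, 10 had all ultrasound libraries above all controls, beside 25.9% of all tested genes. None of the 13 markers was at 0 in any library. A sum follows its most abundant markers, and how far the sorted CD8 T cells themselves express these markers was not tested. The part of the markers in the Zbtb7b values was not tested either.

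Cd4, the co-receptor for MHC class II (NCBI Gene 12504, chr6:124864693-124888247), was at 41.5, 51.7 and 59.8 FPKM in the controls and at 55.8, 57.2 and 74.6 FPKM in ultrasound 1, 2 and 3. The groups overlapped, and ultrasound 3 was the 1 library above all controls. The means were 51.0 ± 9.17 and 62.5 ± 10.5 FPKM (SD, n = 3 each), a log2 difference of 0.29 ± 0.17 (SE) and a limma adjusted p of 0.267. Cd4 was the most abundant of the 7 members in both groups, and its mean lay above that of 89.9% of tested genes.

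Cd8a, the sorted co-receptor, was at 314, 306 and 286 FPKM in controls and 251, 308 and 251 FPKM in ultrasound libraries. Its partner chain Cd8b1 was at 504, 562 and 556 FPKM in controls and 438, 546 and 452 FPKM in ultrasound libraries. Both were below all controls in ultrasound 1 and 3, and limma gave adjusted p of 0.326 for Cd8a and 0.297 for Cd8b1. Their means lay above those of 98.2% and 98.9% of tested genes.

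Ratios between 2 genes of the same library do not depend on how libraries are scaled. Cd4 stood at 13.2%, 16.9% and 20.9% of the Cd8a level in controls and at 22.3%, 18.6% and 29.7% in ultrasound 1, 2 and 3. The values overlapped, since ultrasound 2 lay below control 3. The mean ratio was 17.0% ± 3.86 in controls and 23.5% ± 5.68 after ultrasound (SD, n = 3 each), a log2 difference of 0.46 with p = 0.20 by a two-sided exact permutation test. A test of 3 libraries against 3 cannot give less than 0.10. The 3 ratios tested had, with Benjamini-Hochberg adjustment, p of 0.30 for Cd4 to Cd8a, 0.30 for Zbtb7b to Runx3 and 0.80 for Foxp3 to Cd4.

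Runx3, the CD8 lineage factor (NCBI Gene 12399, chr4:135120645-135177990), varied little. It was at 32.7, 32.9 and 31.5 FPKM in controls and 32.1, 36.2 and 35.6 FPKM in ultrasound 1, 2 and 3. Ultrasound 2 and 3 lay above all controls and ultrasound 1 among them. The means were 32.4 ± 0.769 and 34.6 ± 2.24 FPKM (SD, n = 3 each), and limma gave a log2 difference of 0.09 with standard error 0.08 and adjusted p 0.457. The direction depended on scaling, with a log2 difference of -0.01 under median-of-ratios size factors and under voom. The median over all tested genes was itself 0.09 in the main analysis and -0.01 under both of those.

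Set against Runx3, Zbtb7b stood at 28.3%, 26.8% and 36.4% in controls and at 42.9%, 53.6% and 80.9% in ultrasound 1, 2 and 3. The groups did not overlap. The log2 difference was 0.92, with means of 30.5% ± 5.19 and 59.1% ± 19.6 (SD, n = 3 each) and p = 0.10 by a two-sided exact permutation test, the smallest it can give. Leaving out 1 library at a time gave log2 differences of 0.66 to 1.12. Runx3 varied little, so this ratio largely repeats the Zbtb7b values, whose groups already did not overlap, and is no separate result.

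**Figure D2:**
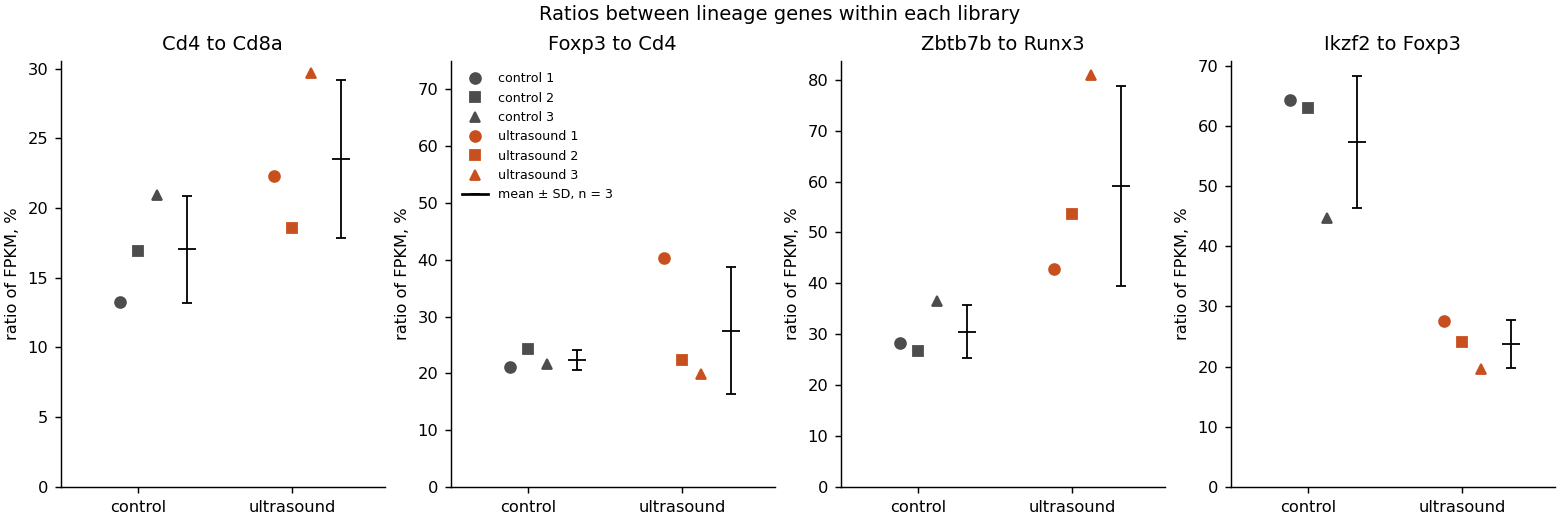
Ratio of the FPKM of 2 genes within each library, in percent (y axes from 0), for 3 control (grey) and 3 ultrasound (orange) libraries with mean ± SD in black (n = 3 each). Control and ultrasound libraries overlap for Cd4 to Cd8a and for Foxp3 to Cd4, where ultrasound 1 is high at 40.4%, and do not overlap for Zbtb7b to Runx3 and for Ikzf2 to Foxp3.

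Foxp3 (NCBI Gene 20371, chrX:7579676-7595243) was at 8.78, 12.6 and 12.9 FPKM in controls. In ultrasound 1, 2 and 3 it was at 22.5, 12.8 and 14.8 FPKM. Ultrasound 1 was far above the other 5 libraries, ultrasound 3 slightly above all controls, and ultrasound 2 among them. The means were 11.4 ± 2.30 and 16.7 ± 5.15 FPKM (SD, n = 3 each), a log2 difference of 0.49 ± 0.23 (SE) and a limma adjusted p of 0.193. The log2 difference was 0.27 without ultrasound 1, and 0.94 for ultrasound 1 alone against the controls, with a limma adjusted p of 0.0900.

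The 3′ end of Foxp3 overlaps Ccdc22, a gene of endosomal protein sorting, which was at 11.0 to 12.1 FPKM in controls and 13.4, 16.1 and 17.4 FPKM in ultrasound 1, 2 and 3. Among the ultrasound libraries it was lowest in ultrasound 1, where Foxp3 was highest. Reads shared by both genes cannot be assigned here either, and their part in the Foxp3 values was not tested. The overlapping long noncoding gene Flicr, which is known to act on Foxp3, was at 0.238 FPKM or less in every library. As a share of the Cd4 level, Foxp3 was at 21.1%, 24.3% and 21.6% in controls and 40.4%, 22.3% and 19.9% in ultrasound 1, 2 and 3. The log2 difference of that ratio was 0.23 (p = 0.80, two-sided exact permutation test), and it was -0.08 without ultrasound 1.

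Ikzf2 (NCBI Gene 22779, chr1:69531207-69687351) was at 5.65, 7.93 and 5.78 FPKM in controls and at 6.20, 3.08 and 2.92 FPKM in ultrasound 1, 2 and 3. Ultrasound 1 lay among the controls, and ultrasound 2 and 3 lay below all of them. The means were 6.45 ± 1.28 and 4.07 ± 1.85 FPKM (SD, n = 3 each), a log2 difference of -0.60 ± 0.26 (SE) and a limma adjusted p of 0.164. Without ultrasound 1 the log2 difference was -0.89 and the limma adjusted p 0.00230, and for ultrasound 1 alone against the controls it was -0.04 with 0.928.

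The pair of regulatory T cell factors thus did not keep one proportion. Ikzf2 stood at 64.4%, 63.0% and 44.7% of the Foxp3 level in controls and at 27.5%, 24.1% and 19.7% in ultrasound 1, 2 and 3. This ratio was chosen after its values were seen, so it is given with no test. The groups did not overlap, but the 2 genes gave this in different ways: Foxp3 was high in ultrasound 1 and Ikzf2 was low in ultrasound 2 and 3.

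Cd40lg, the ligand by which helper T cells activate B cells and dendritic cells (NCBI Gene 21947, chrX:57212143-57224042), was at 9.27, 14.0 and 17.1 FPKM in controls. It was at 14.2, 10.2 and 14.6 FPKM in ultrasound 1, 2 and 3, all within the control range. The log2 difference was -0.02 ± 0.23 (SE), with a limma adjusted p of 0.952. The direction is unsettled, with leaving out 1 library at a time giving -0.25 to 0.16. Over the 3 controls Cd40lg and Cd4 had the same order, lowest in control 1 and highest in control 3, as had Foxp3. In the ultrasound libraries the order was not shared, with Cd40lg lowest in ultrasound 2 and Cd4 lowest in ultrasound 1. No test was made of these orders.

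Gata3 (NCBI Gene 14462, chr2:9857078-9887953) was at 12.1, 15.1 and 14.2 FPKM in controls and at 9.03, 11.0 and 14.3 FPKM in ultrasound 1, 2 and 3. Ultrasound 1 and 2 lay below all controls and ultrasound 3 among them. The means were 13.8 ± 1.53 and 11.4 ± 2.67 FPKM (SD, n = 3 each), a log2 difference of -0.27 ± 0.17 (SE) and a limma adjusted p of 0.303. Gata3 and Zbtb7b, the factor it acts upstream of, therefore had differences of opposite sign, neither of them called. The overlapping noncoding gene 4930412O13Rik was at 0.0779 FPKM or less in every library, and 9230102O04Rik, which also overlaps Gata3, was not analysed here.

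**Figure D3:**
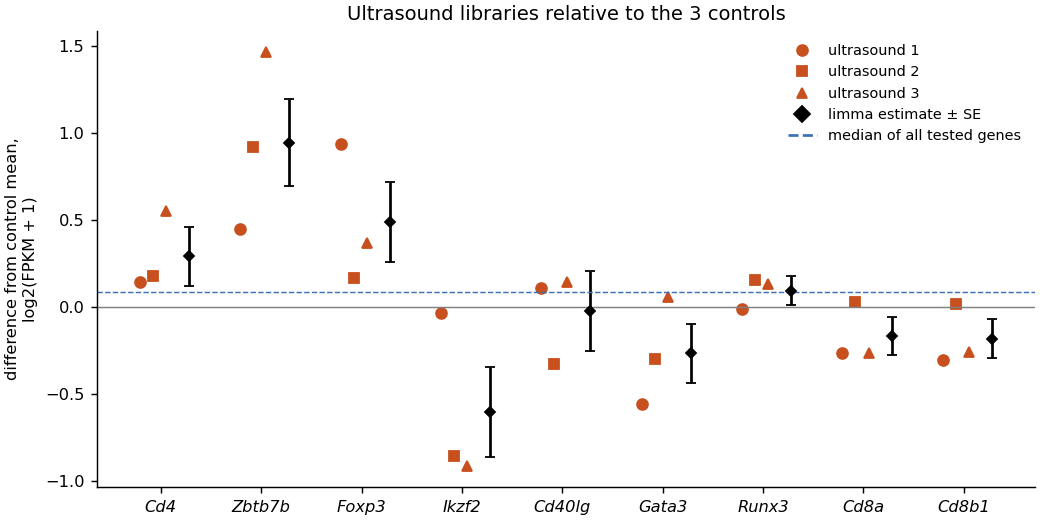
Difference of each ultrasound library (orange) from the mean of the 3 controls on the log2(FPKM + 1) scale, with the limma estimate ± SE in black, for the 7 members and for Cd8a and Cd8b1 (x axis). The dashed line is the median of all tested genes, 0.09, and the 3 ultrasound libraries lie on one side of 0 for Cd4, Zbtb7b, Foxp3, Ikzf2 and no other gene shown.

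By mean FPKM the order in controls was Cd4, Runx3, Gata3, Cd40lg, Foxp3, Zbtb7b and Ikzf2. The ranges of Gata3 and Cd40lg, of Cd40lg and Foxp3, and of Foxp3 and Zbtb7b overlapped. Within each control Cd40lg still lay above Foxp3, at 9.27 against 8.78, 14.0 against 12.6 and 17.1 against 12.9 FPKM. The other overlapping neighbours changed order between controls. In ultrasound libraries Zbtb7b took the third place, followed by Foxp3, Cd40lg and Gata3, and again the ranges of neighbours among these 4 overlapped. Cd4 and Runx3 at the top and Ikzf2 at the bottom kept their places, with ranges clear of their neighbours in both groups.

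Other genes of the CD4 helper programme were read from a list of 22, of which 20 are in the table and 15 were tested. Of these 15, limma called 0, against 8.11% of all tested genes. By limma 3 of the 15 had an unadjusted p under 0.05, beside 31.2% of all tested genes. The median log2 difference was 0.19, with 8 genes above 0 and 7 below, beside 0.09 for all tested genes. Voom called 1 of the 15, Icos, beside 5.38% of all tested genes.

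Icos, a co-stimulatory receptor of follicular helper and regulatory T cells, had the smallest p. It was at 24.2, 24.5 and 23.5 FPKM in controls and 20.05, 14.9 and 15.4 FPKM in ultrasound 1, 2 and 3, below all controls in each (log2 difference -0.51, limma adjusted p 0.0529). Ccr4, a chemokine receptor of type 2 helper and regulatory T cells, was at 1.09 to 1.93 FPKM in controls and 2.20 to 2.99 in ultrasound libraries (limma adjusted p 0.108). St8sia6, a sialyltransferase, was at 1.68 to 1.82 FPKM in controls and 1.88 to 2.80 in ultrasound libraries (limma adjusted p 0.192). Bcl6, the factor of follicular helper T cells and germinal centre B cells, was at 6.14 to 9.08 FPKM in controls and at 6.80, 11.8 and 14.5 FPKM in ultrasound 1, 2 and 3 (limma adjusted p 0.279).

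Several helper genes, picked out after their values were seen, parted ultrasound 1 from ultrasound 2 and 3. Tnfsf8, Maf, Il21 and Ccr8, or 4 of 15, were below all controls in ultrasound 2 and 3 and not in ultrasound 1, as were 18.5% of all tested genes. Cxcr5, Bcl6, Izumo1r and Ccr6, also 4 of 15, were above all controls in ultrasound 2 and 3 and not in ultrasound 1, as were 20.1% of all tested genes. Bcl6, Cxcr5 and Ccr6 are also genes of B cells. The summed level of 10 B cell markers was 243 to 380 FPKM in controls, 182 in ultrasound 1 and 953 and 824 in ultrasound 2 and 3. Of the 10, 0 were above all controls in every ultrasound library, beside 25.9% of all tested genes, and none of the 10 was at 0. The part of B cells in these values was not tested.

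The regulatory T cell list held 22 genes, all in the table, of which 18 were tested. Limma called 2, both higher in ultrasound libraries, beside 8.11% of all tested genes. The median log2 difference was 0.13, with 12 genes above 0 and 6 below, beside 0.09 for all tested genes. Icos and Izumo1r are in both lists.

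Capg, an actin-capping protein that is also abundant in macrophages, rose from 31.0, 28.1 and 26.05 FPKM in controls to 60.9, 62.3 and 68.5 FPKM in ultrasound libraries (log2 difference 1.14, standard error 0.10, limma adjusted p 0.0297). Entpd1, the ectonucleotidase CD39 of regulatory T cells and of myeloid and B cells, rose from 5.62, 3.50 and 2.74 FPKM to 7.58, 9.22 and 8.74 FPKM (log2 difference 0.98, standard error 0.21, limma adjusted p 0.0433). Ebi3, a subunit of interleukin 27 and interleukin 35, was at 3.27 to 4.16 FPKM in controls and 4.90, 13.4 and 15.3 FPKM in ultrasound 1, 2 and 3 (limma adjusted p 0.0809). Gpr83, a receptor known from regulatory T cells, was at 1.35 to 2.31 FPKM in controls and 2.72 to 3.39 in ultrasound libraries (limma adjusted p 0.102). The monocyte and macrophage marker sums given beside Zbtb7b were higher in the same 3 libraries, and their part in Capg, Entpd1 and Ebi3 was not tested. Both calls were lost without control 2, control 3, ultrasound 2 or ultrasound 3. Entpd1 also lost its call with median-of-ratios size factors (limma adjusted p 0.0622), with voom (0.0534) and for ultrasound 1 alone against the controls (0.193).

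Ctla4, the inhibitory receptor that regulatory T cells carry at a high level, was at 86.0, 88.8 and 81.5 FPKM in controls and 76.8 FPKM in ultrasound 1, against 14.4 and 15.8 FPKM in ultrasound 2 and 3. All 3 ultrasound libraries lay below all controls, and the difference in size was carried by ultrasound 2 and 3 (log2 difference -1.67, standard error 0.59, limma adjusted p 0.116). Ikzf2, Nt5e, Tigit and Il10, or 4 of 18, were below all controls in ultrasound 2 and 3 and not in ultrasound 1, beside 18.5% of all tested genes. Il10, an anti-inflammatory cytokine, was at 4.12 to 5.01 FPKM in controls and 7.38 in ultrasound 1, against 0.675 and 1.15 in ultrasound 2 and 3. Il2ra, the interleukin 2 receptor chain CD25 of regulatory and activated T cells, was at 4.51 to 7.44 FPKM in controls and 10.4, 6.28 and 5.40 FPKM in ultrasound 1, 2 and 3, so that, as for Foxp3, the highest library was ultrasound 1. Il10, Il2ra and the genes below all controls in 2 libraries were picked after their values were seen.

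**Figure D4:**
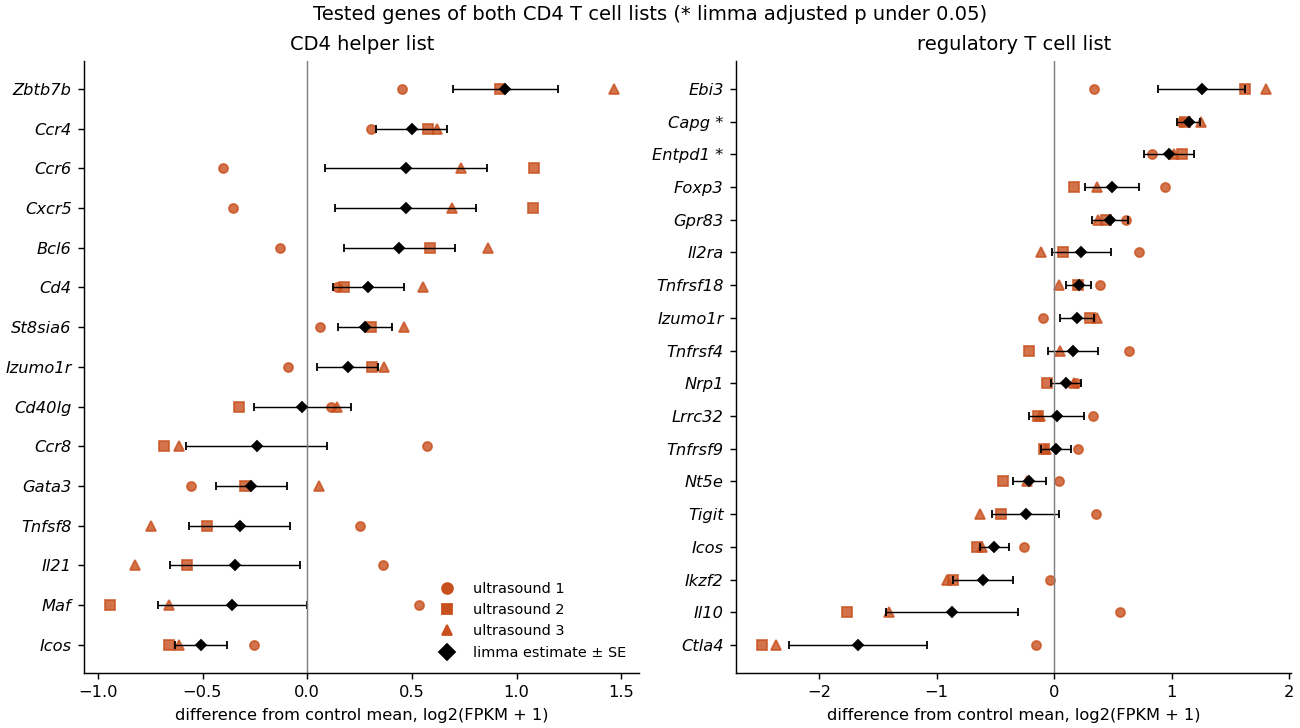
Difference of each ultrasound library (orange) from the control mean on the log2(FPKM + 1) scale (x axis) for the tested genes of the CD4 helper list (15 genes) and the regulatory T cell list (18 genes), with the limma estimate ± SE in black and an asterisk at an adjusted p under 0.05. Capg and Entpd1 carry the asterisk, and genes such as Il10, Ctla4 and Maf show ultrasound 2 and 3 together on the left, apart from ultrasound 1.

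All 17 genes of the CD8 lineage list, which holds Runx3, were tested, and limma called 0, beside 8.11% of all tested genes, and voom 0, beside 5.38%. An unadjusted p under 0.05 was found for 5 of the 17, near the 31.2% of all tested genes that had one. The median log2 difference was -0.0045, with 8 genes above 0 and 9 below, beside 0.09 for all tested genes. Klrk1, the activating receptor NKG2D, was at 5.32 to 5.96 FPKM in controls and 7.66, 16.2 and 13.2 FPKM in ultrasound 1, 2 and 3 (limma adjusted p 0.0616). Klrd1, Itgae, Crtam and Eomes were below all controls in each ultrasound library, as were 8.96% of all tested genes, with log2 differences of -0.52, -0.39, -0.38 and -0.52 and limma adjusted p of 0.0799 to 0.110. Eomes, a factor of memory CD8 T cells, was at 32.02, 39.9 and 36.4 FPKM in controls and 19.6, 31.7 and 24.3 FPKM in ultrasound libraries. Ctsw, a protease of cytotoxic cells, had a limma adjusted p of 0.203. The authors' deposited table has q under 0.05 for 5 of the 17, Klrk1 higher and the other 4 lower, beside 12.3% of all its genes.

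Summed markers of NK cells, which share Klrk1 and Klrd1 with CD8 T cells, were 65.7 to 118 FPKM over 8 genes in controls and 195, 393 and 382 FPKM in ultrasound 1, 2 and 3. Of the 8, 3 were above all controls in every ultrasound library, as were 25.9% of all tested genes, and none was at 0. Gzma and Fcer1g are among the 8. How far CD8 T cells themselves, or cell types other than NK cells, express these markers was not tested. The part of NK cells in the Klrk1 values was not tested either.

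The list of 22 transcription factors and chromatin enzymes linked to the choice between the CD4 and CD8 lineages was tested in full, and limma called 1 of the 22, a share no higher than the 8.11% of all tested genes. Myb, which acts on T cell development, fell from 19.0, 20.8 and 18.9 FPKM in controls to 14.6, 14.7 and 12.8 FPKM in ultrasound libraries (log2 difference -0.45, standard error 0.09, limma adjusted p 0.0385). The median log2 difference of the list was -0.07, beside 0.09 for all tested genes, and 8 of 22 were below all controls in every ultrasound library, as were 8.96% of all tested genes. Bcl11b, required for T cell identity, was at 23.3 to 26.7 FPKM in controls and 20.8, 15.2 and 15.7 FPKM in ultrasound 1, 2 and 3 (limma adjusted p 0.0593). Tox, which CD4 lineage commitment requires, was at 17.1 to 22.3 FPKM in controls and 11.0 to 15.1 in ultrasound libraries (limma adjusted p 0.0694). Id3, an inhibitor of E proteins, was at 41.8 to 55.3 FPKM in controls and 22.4 to 37.2 in ultrasound libraries (limma adjusted p 0.0815).

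Runx1, the paralog of Runx3, was at 7.80 to 8.24 FPKM in controls and 10.01, 9.65 and 11.1 FPKM in ultrasound libraries (log2 difference 0.32, limma adjusted p 0.0756). Zbtb7a, the paralog of Zbtb7b, was at 15.0 to 15.2 FPKM in controls and 17.6 to 20.01 in ultrasound libraries (log2 difference 0.30, limma adjusted p 0.0724). Cbfb, the partner subunit of the RUNX proteins, was at 60.6, 62.7 and 52.0 FPKM in controls and 61.0, 35.5 and 29.5 FPKM in ultrasound 1, 2 and 3. It is named after its values were seen, and it parted ultrasound 1 from the other two as Ikzf2 did (limma adjusted p 0.199). The call of Myb was lost when any one library other than ultrasound 1 was left out, and for ultrasound 1 alone against the controls (limma adjusted p 0.102).

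General T cell genes gave the reference for all of these. Of 15 genes, 14 were tested and limma called 1, beside 8.11% of all tested genes. It was Cd28, the main co-stimulatory receptor, which fell from 64.5, 69.9 and 56.7 FPKM in controls to 35.1, 19.5 and 18.2 FPKM in ultrasound 1, 2 and 3 (log2 difference -1.41, standard error 0.24, limma adjusted p 0.0311). The call was lost when any one library other than ultrasound 1 was left out. The median of the 14 was -0.10, beside 0.09 for all tested genes. In ultrasound 1, Cd3e was below all controls at 165 FPKM against 191 to 209, and in ultrasound 2 and 3 above them at 310 and 288 (limma adjusted p 0.376). Lat, Cd3d and Cd27 had limma adjusted p of 0.128 to 0.297.

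Genes whose profile over the 6 libraries was most like a member were sought by the mean absolute difference between log2(FPKM + 1) profiles, each centred on its own mean. Nearest to Cd4 were Tpcn1, Rfx1 and Rpain, at 0.06 each. Nearest to Foxp3 were Tst, Txnrd3 and Cish, at 0.09, 0.11 and 0.12. Tst and Txnrd3 were low, at 0.463 to 2.37 and 0.989 to 2.87 FPKM, where this scale understates change. Cish, a feedback inhibitor of cytokine signalling, was at 4.99, 5.84 and 8.10 FPKM in controls and 13.1, 7.84 and 10.3 FPKM in ultrasound 1, 2 and 3. Near to Runx3 were Mical3 and Vezt, at 0.01 and 0.02, both genes that, like Runx3, changed little on this scale. Mical3 was at 1.11 to 1.39 FPKM and Vezt at 0.940 to 1.21 FPKM, again low levels whose change the scale understates.

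**Figure D5:**
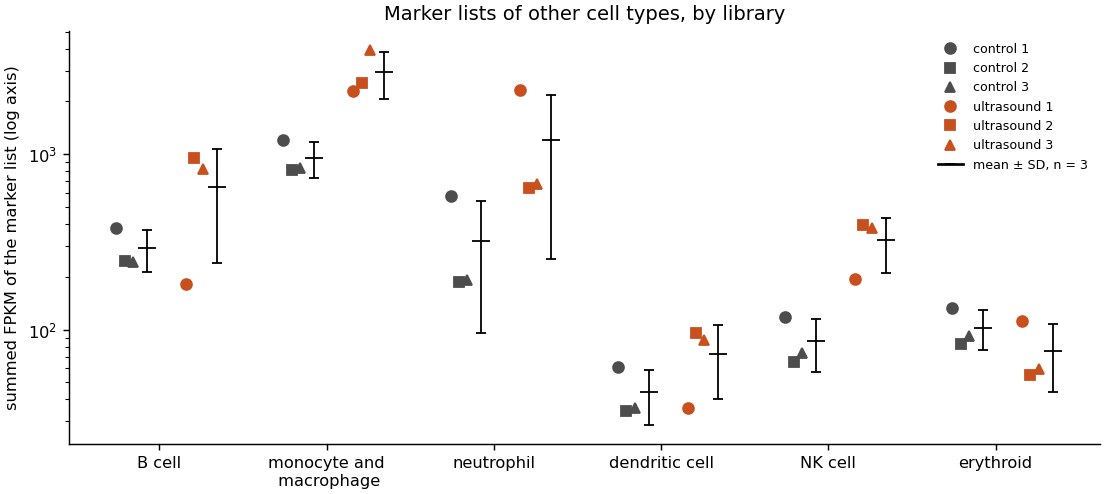
Summed FPKM (log axis) of the marker lists of 6 other cell types in the 3 control (grey) and 3 ultrasound (orange) libraries, with mean ± SD in black (n = 3 each). Monocyte and macrophage, neutrophil and NK cell sums in the ultrasound libraries all exceed those in the controls, and the B cell and dendritic cell sums are higher in ultrasound 2 and 3 but not in ultrasound 1.

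Among the remaining other cell types, 10 neutrophil markers summed to 187 to 575 FPKM in controls and 2319, 642 and 673 FPKM in ultrasound 1, 2 and 3. Beside 25.9% of all tested genes, 9 of these 10 markers were above all controls in every ultrasound library. Their highest library, ultrasound 1, was that of Foxp3, and their part in the Foxp3 values was not tested. The 10 dendritic cell markers, of interest because some splenic dendritic cells carry Cd4, summed to 34.4 to 61.5 FPKM in controls and 35.5, 96.0 and 87.5 FPKM in ultrasound 1, 2 and 3. Of these 10, 0 were above all controls in every ultrasound library, beside 25.9% of all tested genes. The 7 erythroid markers summed to 83.2 to 133 FPKM in controls and 112, 55.3 and 59.5 FPKM in ultrasound 1, 2 and 3. None of these markers was at 0 in any library.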

How the data were processed

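Members and gene lists were chosen with earlier results of these data known. Libraries were made from total RNA with a VAHTS Universal kit, per the labels' protocols. HISAT2, HTSeq, DESeq2, R 3.2.0 and the build mm10 are named in the submitters' processing notes. The authors deposited FPKM per library, and, per the file headers, signal columns of mean DESeq2 normalized counts, their fold change (a ratio), log2 fold change, p-value and q-value. The second deposited table, a selection of the same genes, was not used.

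The planned test fitted the unit: log2(FPKM + 1) values were fitted with limma 3.58.1, with its trend and robust options, in R 4.3.3, two-sided, with Benjamini-Hochberg adjustment over all tested genes. Whole reads were recovered from the relation between FPKM and the group means; 100% of 40361 values up to 150 reads lay within 0.05 of a whole number. They were used for voom, without edgeR. Both steps were tested on simulated data. Members' coordinates are those of RefSeq on GRCm38, matched by NCBI Gene identifier. Python 3.11.15, numpy, pandas and matplotlib did the rest.

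Genes named are the 7 members, Cd8a and Cd8b1, up to 6 tested genes of each list with the smallest unadjusted p, and the 3 most like Cd4, Foxp3 and Runx3. Others are marked, and 2 genes this rule names are not reported here. Alternatives covered the pseudocount (0.1), filters, scaling, voom, a replicate block, a term that leaves ultrasound 1 against the controls, eBayes without the robust option, the authors' values and each library left out.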

Additional observations from a re-analysis of the deposited data

Results flagged for a closer look

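Il1rl1, the interleukin 33 receptor of type 2 helper and regulatory T cells, lay below the filter on low values and entered no test. It was picked among the untested list genes because all 3 ultrasound libraries exceeded all 3 controls. That separation was thus the rule of choice and not a finding, and 25.9% of all tested genes had it. Recovered reads were 45, 44 and 40 in controls and 92, 64 and 128 in ultrasound 1, 2 and 3. Its level was 0.164 ± 0.0103 FPKM in controls and 0.343 ± 0.111 FPKM in ultrasound libraries (SD, n = 3 each). Groups of 3 libraries are too small for a check of single outlying libraries.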

How the results depend on the processing

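Counts and single genes were recomputed under 15 alternatives, and the cause of each difference was not tested. The tested ratios were recomputed only with each library left out and with recovered reads in place of FPKM. Over all genes, 864 called became 0 with no filter on low values (4216 at an unadjusted p under 0.05), 437 with median-of-ratios size factors, 573 with voom on recovered reads, 150 for ultrasound 1 alone against the controls and 2179 in the authors' deposited table. The 2179 are 12.3% of the 17744 genes of the authors' deposited table, while the 864 are 8.11% of 10655 tested genes. Member and list counts from the authors' deposited table, given next, stand beside that 12.3%. The 0 members became 1 there. The CD4 helper list (0) had 1 with voom and 2 in the authors' deposited table. The regulatory T cell list (2) had 0 with no filter, 1 with median-of-ratios size factors, 1 for ultrasound 1 alone, 2 with voom (Icos in place of Entpd1) and 4 in the authors' deposited table. The CD8 lineage list (0) had 5 there. The lineage choice list (1) had 0 with no filter, 1 for ultrasound 1 alone (Id3 in place of Myb) and 7 in the authors' deposited table, and the general T cell list (1) had 0 and 3.

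Leaving out 1 library at a time gave 0 to 5727 genes, 0 to 2 members, and 0 to 12, 0 to 9, 0 to 8, 0 to 16 and 0 to 6 genes of the helper, regulatory, CD8 lineage, lineage choice and general T cell lists, each highest without ultrasound 1. The Foxp3 to Cd4 ratio ran from -0.083 to 0.43 on the log2 scale and the Cd4 to Cd8a ratio from 0.28 to 0.62.

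Whether same-numbered libraries were paired is not known here. Correlations of their deviations from the group means were -0.04, 0.05 and 0.06, and 3 libraries per group are too few for these to decide it. With the replicate block limma called 0 genes (3249 at an unadjusted p under 0.05), and 0 of the regulatory, 0 of the lineage choice and 0 of the general T cell list.

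Of 105 values for the 7 members, 94 kept direction and call, 3 became called and 8 reversed, all for Cd40lg and Runx3. Reversals for ultrasound 1 alone were Cd40lg (0.11), Runx3 (-0.013), Bcl6 (-0.13), Cd27 (-0.070), Cd3e (-0.26) and Mical3 (-0.017). Cd40lg ran from -0.25 to 0.16 when 1 library was left out. Runx3 was -0.0099 with median-of-ratios size factors, -0.010 with voom and -0.028 in the authors' deposited table. Every member had 409 recovered reads or more in each library, and the effect of depth on the calls was not tested.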
